A study of Homo sapiens with 4 samples.

Results

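The genes described here encode the subunits of the PPP family of serine/threonine phosphatases, and what was measured is how often each of their exons was kept or left out of the mRNA. They were taken as every row of the deposited skipped exon table whose gene symbol begins with PPP1 to PPP6, and those averaging 20 or more junction reads over the libraries were tested. A row is an event, that is, an exon with its upstream and downstream neighbour. Of 65601 events in the table, 335 in 57 genes carried such a symbol, and 299 of these, on 239 exons of 51 genes, passed the read minimum, as did 54503 events of the whole table. The 36 events below the minimum included every event of PPP1R16B, PPP1R32, PPP1R3E, PPP1R42, PPP1R9A and PPP4R4. At the edge of the minimum, a 113-nt exon of PPP1R12B averaged exactly 20 reads and levels of 0.911 and 0.666 in the first set, against 0.630 and 0.915 in the second. Just below it, a 183-nt exon of PPP1R9A had 18.5 reads and levels of 0.958, 1, 1 and 1.

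The cells were HEK293T, a human embryonic kidney line that the labels call 293T. Per the labels, 2 libraries came from cells with the treatment "none" and 2 from cells with an antisense oligonucleotide (ASO, a MOE gapmer at 70 nM) against SNORD89, a box C/D small nucleolar RNA. The lipid transfection protocol stands on the labels of both groups, medium was changed at 24 h, and RNA was taken at 48 h for polyA-selected libraries of 150-base read pairs; no control oligonucleotide is named. The table holds both groups as 2 sets of 2 libraries, and no column or label says which set is which. The name it was deposited under mentions the SNORD89 group before the untreated one, but the order of a name was not used to assign the sets, so they are called the first and the second set. Every difference below is the first set minus the second, and no direction of a knockdown effect can be read from it. The table covers exon events only, so the level of SNORD89 was not checked here.

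PPP enzymes work as assemblies. A small group of catalytic subunits carries the active site, and a much larger group of regulatory subunits takes the enzyme to its substrates, to a place in the cell, or blocks it. PP1 binds its many partners through short docking motifs, PP2A joins a scaffold and a catalytic subunit to an exchangeable B subunit, PP4 and PP6 have dedicated regulatory subunits, and calcineurin (PP3) is switched on by calcium. Exons that are alternatively spliced in these genes can change the docking surface, the localization signal or the untranslated part of the transcript.

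The inclusion level belongs to an event. It estimates how often the exon is kept rather than skipped between its own upstream and downstream neighbour, not its share of all transcripts of the gene. It comes from the reads across its 2 inclusion junctions and the 1 skipping junction, corrected for form length. The same exon can therefore have other levels with other neighbours. Variants that share 1 end and the neighbour on that side also share that inclusion junction. The 95% Wilson intervals given below cover counting error only. The phosphatase events were covered by 164118 and 160945 reads in the first set and by 160802 and 181462 in the second. The median per event was 295, 258, 213 and 229 reads. Library 2 of the second set stood apart: 6 of the 335 events had no reads in it, against 1 in each of the other libraries, so results are also given without it.

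Some of the coding exons described further on are printed below, as the transcript sequence of GENCODE 29. Non-coding exons are not printed, although several of the results further on are from such exons. Each printed exon was matched by the spacing of exons along the transcript, and positions are those of the deposited table (hg19). The first 3 had a false discovery rate (FDR) under 0.05 in the authors' deposited table, and capitals mark the last 3 bases, which lie next to the 5′ splice site.

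PPP1R37, chr19:45641772-45641869, + strand: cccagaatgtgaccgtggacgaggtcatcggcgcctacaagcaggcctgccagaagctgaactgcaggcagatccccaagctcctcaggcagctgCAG
PPP1R21, chr2:48706623-48706695, + strand: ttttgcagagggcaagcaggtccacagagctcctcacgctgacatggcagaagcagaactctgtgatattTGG
PPP2R5A, chr1:212522531-212522584, + strand: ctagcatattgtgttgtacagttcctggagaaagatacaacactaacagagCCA

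The PPP1CA exon has a longer and a shorter variant, both with an FDR under 0.05 in that table, that differ at the 5′ end. Capitals mark the 33 bases that only the longer variant holds.

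PPP1CA, chr11:67168539-67168703, - strand: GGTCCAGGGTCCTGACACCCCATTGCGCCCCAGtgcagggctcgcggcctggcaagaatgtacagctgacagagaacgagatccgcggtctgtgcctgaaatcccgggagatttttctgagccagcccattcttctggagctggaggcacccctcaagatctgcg

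The next 4 are cassette exons that were both kept and skipped in all libraries in their deepest event, shown as examples from regulatory and catalytic subunits of exons that hold a whole number of codons. Capitals again mark the last 3 bases.

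PPP6R2, chr22:50875417-50875497, + strand: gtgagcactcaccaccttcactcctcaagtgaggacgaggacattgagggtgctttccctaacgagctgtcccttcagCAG
PPP6R3, chr11:68350511-68350597, + strand: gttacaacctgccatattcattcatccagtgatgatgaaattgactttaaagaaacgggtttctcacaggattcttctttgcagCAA
PPP2R5C, chr14:102384168-102384284, + strand: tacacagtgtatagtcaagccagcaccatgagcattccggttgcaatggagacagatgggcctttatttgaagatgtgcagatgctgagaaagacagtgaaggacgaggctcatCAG
PPP3CB, chr10:75199630-75199659, - strand: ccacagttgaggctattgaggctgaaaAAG

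None of the printed exons held a stop codon in the frame of the matched transcript. The PPP1R37 exon (98 nt) and the PPP1R21 exon (73 nt) are not a multiple of 3 bases, so keeping or skipping them shifts the frame. The exons of PPP2R5A (54 nt), PPP6R2 (81 nt), PPP6R3 (87 nt), PPP2R5C (117 nt) and PPP3CB (30 nt) are multiples of 3.

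Most phosphatase exons were nearly always kept in their deepest event. Counting the deepest event of each exon, 163 of 239 exons (68.2%, against 65.7% in the whole table) had a mean level above 0.95, 50 lay between 0.05 and 0.95, and 26 lay below 0.05. Their median length was 118 nt, as in the whole table, and 102 (42.7%) were a multiple of 3 bases, against 40.3%. Together, the introns on both sides had a median length of 5725 nt, against 4675 nt. By the matched transcripts, 182 exons were coding, 24 partly coding and 25 non-coding, and 8 could not be matched. The 54 exons with at least 1 event at an intermediate level comprised 35 coding, 7 partly coding, 11 non-coding and 1 unmatched exon. In 24 pairs of exons in 15 genes, 2 variants shared 1 end and differed at the other, and in 13 of the pairs the difference was a multiple of 3 bases. These are descriptions, with no test of the phosphatase genes against the table.

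Between the sets, 6 phosphatase events were called, that is, had an FDR under 0.05 and a difference of at least 0.1 in the authors' deposited table. They are 2.01% of the 299, and 2.71% of all tested events were called. The first set was higher in 4 (1.34%, against 1.34% of all events) and lower in 2 (0.669%, against 1.37%). Exons of PPP1R18, PPP1R21 and PPP6R3 (2 events) had more inclusion in the first set, and exons of PPP1R37 and PPP2R5A had less. With the FDR alone, 20 events on 20 exons of 13 genes passed in the authors' deposited table (6.69%, against 5.72%), 14 of them higher in the first set (4.68%, against 3.03%) and 6 lower (2.01%, against 2.68%). Of the 6 called, 4 kept a difference of at least 0.1 without library 2 of the second set (1.34%, against 1.84%). These 20 rest on 16 skipping junctions, because variants of an exon and neighbouring exons share the reads that skip them.

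A second test, made here, compared the sets by a quasi-binomial model on the junction reads, with limma's moderation of the dispersion over all events. It called 0 phosphatase events at an adjusted p under 0.05, where 0.0294% of all events passed. At an unadjusted p under 0.05 it had 24 of 299 (8.03%, against 6.72%). The smallest adjusted p among them was 0.105. Fitted to log2 ratios (inclusion over skipping), limma called 4 with precision weights (1.34%, against 0.657%) and 0 without weights, where 14 had an unadjusted p under 0.05 (4.68%, against 4.87%). The moderation gave all events 1 dispersion of 2.66, so an event's own scatter between libraries does not enter its p. An exact permutation test of 2 libraries against 2 cannot go below a p of 0.333, and the labels name the replicates biological without saying how the cultures were separated.

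**Figure D1:**
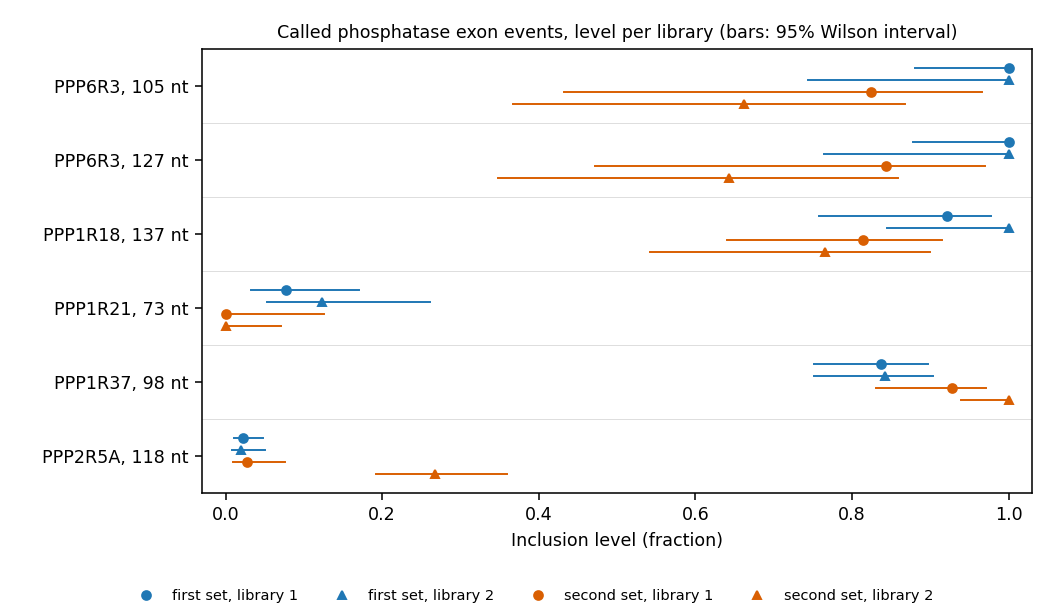
Inclusion level (fraction, horizontal axis) of the 6 called events in each library, with 95% Wilson intervals as bars and 1 row per event. In each row the levels of the sets do not overlap, though intervals can. In PPP2R5A 3 libraries lie between 0.0199 and 0.0267 and library 2 of the second set at 0.267.

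The called events were shallow. They had means of 22.25 to 114.75 reads per library, while the phosphatase events had a median of 248.75 and the deepest, an 84-nt exon of the PP1 inhibitor PPP1R14B, had 9170.75. The median absolute difference between the sets was 0.0112 over the phosphatase events and 0.0113 over all events. Between the libraries of 1 set it was 0.00867 in the first and 0.00727 in the second (all events 0.0115 and 0.00847). A difference of at least 0.1 was seen in 16 events between the sets (5.35%, against 7.05% of all events). It was seen in 21 between the first set's own libraries (7.02%, against 7.68%) and in 27 between the second set's (9.03%, against 12.9%). Single libraries scatter more than the means of 2 libraries compared between the sets, so the values within and between sets are not like measures. The sets' levels did not overlap in 78 of 299 events (26.1%), against 22.8% of all events.

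**Figure D2:**
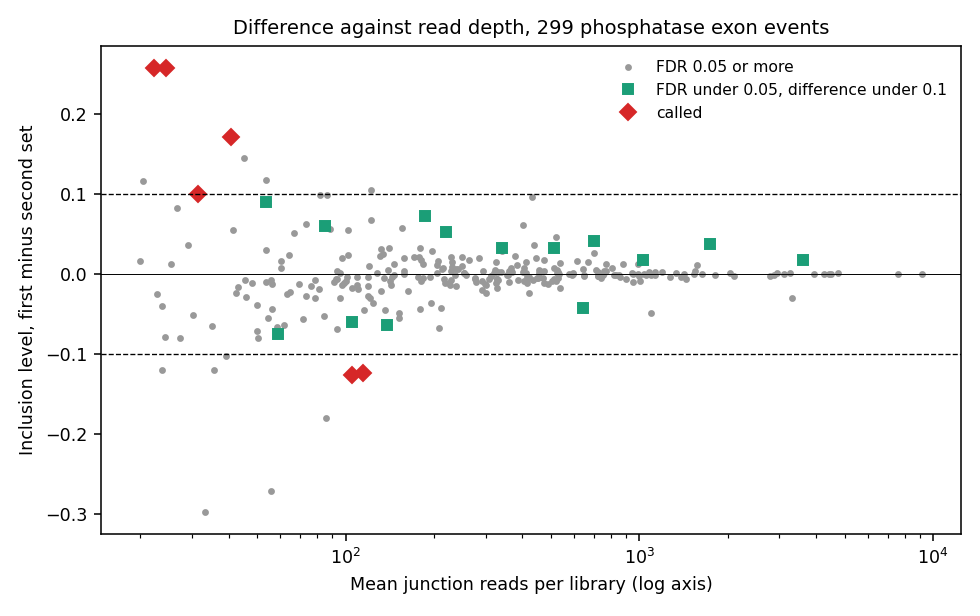
Difference in inclusion level (first minus second set, vertical axis) against the mean junction reads per library (log axis) for 299 events, with dashed lines at 0.1 and -0.1. The called events lie at the shallow end, from 22.25 to 114.75 reads, and the events with an FDR under 0.05 reach past 1000 reads only at differences of 0.018 and 0.038.

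Most exons of the catalytic subunits were kept throughout. Of 53 events in 11 genes, 36 had a level above 0.95, 10 were intermediate and 7 lay below 0.05. No event was called (0%, against 2.71% of all events), and 4 had an FDR under 0.05 in the authors' deposited table (7.55%, against 5.72%). These were 2 each in PPP1CA and PPP6C, all higher in the first set. The median absolute difference was 0.00438.

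PPP1CA (ENSG00000172531.10) encodes the alpha catalytic subunit of PP1. Its 165-nt exon variant had levels of 0.948 (interval 0.929 to 0.962, 1382 reads) and 0.955 (0.939 to 0.967, 1680 reads) in the first set. In the second they were 0.911 (0.892 to 0.927, 1872 reads) and 0.916 (0.898 to 0.931, 2019 reads). Both libraries of the first set lay above both of the second, and the libraries of a set lay close together. The intervals of library 1 of the first set and library 2 of the second overlapped slightly. The difference was 0.038 with an FDR of 0.00806 per the authors' deposited table, the quasi-binomial adjusted p was 0.44, and weighted limma gave an adjusted p of 0.0458. The 132-nt variant, without the 33 capital bases above, had 0.976 and 0.979 against 0.959 and 0.961, with an FDR of 0.0166 per the authors' deposited table. Both variants are read against the same skipping reads, 37 and 39 in the first set, against 87 and 89 in the second. They also share the inclusion junction at their common end, so they are not 2 independent measurements. Inclusion reads were 1345 and 1641 against 1785 and 1930 for the 165-nt variant, and 2783 and 3355 against 3871 and 4158 for the 132-nt variant. Reads of the single inclusion junctions are not given apart, so these levels do not show how often the 33 bases were kept.

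PPP6C encodes the PP6 catalytic subunit. A 66-nt exon (chr9:127923120-127923185) had levels of 0.984 and 0.968 in the first set, against 0.981 and 0.867 in the second. The neighbouring 142-nt exon had 0.991 and 0.980 against 0.991 and 0.916. In both, library 2 of the second set alone was low. The differences were 0.052 (FDR 0.0155) and 0.032 (FDR 0.0186) in the authors' deposited table. Both exons share the skipping reads, 3 and 5 against 2 and 22, and without that library the differences were -0.00489 and -0.00602. The deepest event of the 66-nt exon had 0.940 and 0.930 against 0.933 and 0.905 (FDR 0.907 in the authors' deposited table).

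The deepest event of each other catalytic gene was near full inclusion in all libraries. PPP2CA, a PP2A catalytic subunit, had 0.998 and 0.998 against 0.995 and 0.977 for a 210-nt exon. PPP1CC had 0.998 and 0.997 against 1 and 1, and PPP2CB 0.985 and 0.993 against 1 and 1. The deepest PPP1CB event had 0.990 and 0.997 against 0.986 and 1, and that of PPP5C, whose product carries its own protein-binding repeats, 0.984 and 0.992 against 0.984 and 0.988. A 127-nt exon of PPP4C was at 1 and 1 against 0.998 and 1. PPP3CA was at 1 and 0.991 against 1 and 1, PPP3CB at 1 and 1 against 1 and 0.984, PPP3CC at 0.979 and 1 against 1 and 1, and a 210-nt exon of PPP6C at 0.998 and 0.998 against 0.998 and 1.

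PPP4C, the PP4 catalytic subunit, held most of the deep intermediate exons of this group. A 111-nt partly coding variant (chr16:30092521-30092631) had 0.555 and 0.563 in the first set, against 0.582 and 0.633 in the second, with an FDR of 0.499 per the authors' deposited table. The 52-nt variant with the same end had 0.844 and 0.870 against 0.886 and 0.888. The second set was above the first in both, by less than 0.1. Both variants share their skipping reads, 289 and 323 against 331 and 322, so they are not independent measurements. A 102-nt exon had 0.946 and 0.942 against 0.946 and 0.939, and its 218-nt variant 0.873 and 0.861 against 0.872 and 0.856. They too share their skipping reads, 86 and 107 against 105 and 152. Both were level between the sets to within 0.003 on average. In the calcineurin genes a 30-nt cassette exon was intermediate: in PPP3CB it had 0.669 and 0.856 against 0.754 and 0.730 (FDR 1 in the authors' deposited table), and in PPP3CC 0.232 and 0.417 against 0.244 and 0.210 (FDR 0.544). The libraries of the sets overlapped in both exons, and the gap between the first set's own libraries was larger than that between the sets. A 126-nt exon of PPP3CA had 0.916 and 0.839 against 0.951 and 0.903.

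The PP2A scaffold subunits and PTPA were described in 19 events of 3 genes, of which 0 were called and 2 had an FDR under 0.05. PPP2R4 (ENSG00000119383.15) encodes PTPA, a prolyl isomerase that activates PP2A. A 126-nt exon of this gene had 0.994 and 0.991 against 0.991 and 0.960, a difference of 0.017 (FDR 0.0225 in the authors' deposited table) that was 0.000939 without library 2 of the second set. PPP2R1B, a scaffold isoform, had 0.947 and 0.925 against 0.890 and 0.924 for a 135-nt exon.

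The PP2A B subunits had 8 of 62 events with an FDR under 0.05 (12.9%, against 5.72% of all events), 4 higher and 4 lower in the first set. Of the 62 events, 1 was called (1.61%, against 2.71%). Of the 8 with an FDR under 0.05, 2 share a skipping junction. The called event was a 118-nt exon of PPP2R5A (ENSG00000066027.7, chr1:212480125-212480242), outside the coding sequence of the matched transcript. PPP2R5A encodes a B′ subunit of PP2A. The level was 0.022 (0.01 to 0.0474, 155 reads) and 0.0199 (0.00771 to 0.0503, 114 reads) in the first set, against 0.0267 (0.00903 to 0.0763, 64 reads) and 0.267 (0.192 to 0.359, 86 reads) in the second. The other 3 libraries lay close together and library 2 of the second set stood alone, with 34 inclusion reads where the others had 6, 4 and 3. The difference was -0.126 (FDR 0.00143 in the authors' deposited table) with all libraries and -0.00578 without that one, so the call rests on it.

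In the 54-nt coding exon of PPP2R5A both libraries of a set were alike. It was kept in all reads of the first set, with levels of 1 (0.976 to 1, 214 reads) and 1 (0.978 to 1, 231 reads). In the second it had 0.918 (0.852 to 0.956, 146 reads) and 0.938 (0.879 to 0.97, 152 reads), from 9 and 7 skipping reads. Both second-set libraries were lower, and the intervals did not overlap those of the first set. The difference was 0.072 with an FDR of 0.000434 per the authors' deposited table, and 0.0821 without library 2 of the second set, so it did not reach 0.1. The quasi-binomial adjusted p was 0.263. The other event on this exon, with a nearer upstream exon, had 0.981 and 1 against 1 and 1.

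Among the other B subunits, 3 genes had rare exons or rare skipping that moved by less than 0.1. A 71-nt non-coding exon of PPP2R2A, a B regulatory subunit, had 0.0400 and 0.0371 in the first set against 0.00271 and 0.00861 in the second. The inclusion reads were 26 and 19 against 1 and 4, and the difference was 0.033 (FDR 0.000358 in the authors' deposited table). PPP2R2D, of the same subfamily, had 0.122 and 0.0772 against 0.0199 and 0 for a 113-nt exon, from 10 and 5 against 2 and 0 inclusion reads, with an FDR of 0.00136 per the authors' deposited table. In both, the first set was higher in both libraries, at 0.0358 and 0.0796 without library 2 of the second set. A 197-nt exon of PPP2R5E had 0.902 and 0.969 against 1 and 1, with 11 and 3 skipping reads in the first set and 0 in the second (FDR 0.0172 in the authors' deposited table).

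PPP2R3C had 3 such events, which did not all go the same way. The 29-nt and 84-nt exons adjoin and together span a 113-nt exon, so they are not separate results. They had 0.942 and 0.861 against 0.953 and 1, and 0.965 and 0.887 against 0.973 and 1, with library 2 of the first set lowest. Their skipping reads, 2 and 8 against 2 and 0, are shared with the 113-nt exon and an 83-nt variant. In the authors' deposited table the 113-nt exon differed by -0.023 (FDR 0.236) in its deepest event, and the 83-nt variant by -0.045 (FDR 0.0519). The 76-nt exon was at 1 in 3 libraries and at 0.879 in library 2 of the second set. PPP2R5C, a B′ subunit, was intermediate for its 117-nt coding exon, with 0.438 and 0.479 against 0.552 and 0.419, so the first set lay within the second. A 128-nt exon of PPP2R3C had 0.866 and 0.745 against 0.829 and 0.741, also with overlap.

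The PP4 and PP6 regulatory subunits had 20 of 58 events at an intermediate level. Of the 58 events, 2 were called (3.45%, against 2.71% of all events). No others had an FDR under 0.05, so 3.45% passed by the FDR, against 5.72%. Both called events were in PPP6R3 (ENSG00000110075.10), which encodes a regulatory subunit of PP6. They are the 105-nt and 127-nt variants of 1 non-coding exon (start 68272613 on chromosome 11), each joined to the exon that starts at 68305127. The 105-nt event had levels of 1 (0.88 to 1, 48 reads) and 1 (0.744 to 1, 19 reads) in the first set. In the second it had 0.824 (0.432 to 0.967, 9 reads) and 0.662 (0.367 to 0.868, 13 reads). The 127-nt event had 1 and 1 against 0.844 and 0.643. Both second-set libraries were lower, on wide intervals.

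The 2 PPP6R3 calls rest on 4 skipping reads, 0 and 0 in the first set, against 1 and 3 in the second, which both events share with an event of the 151-nt exon. Their differences were 0.257 (FDR 0.0447) and 0.256 (FDR 0.0493) in the authors' deposited table, and 0.176 and 0.156 without library 2 of the second set. With the downstream exon that starts at 68286969, the same variants were deeper and not called. There the 105-nt variant had 0.308 and 0.215 against 0.154 and 0.172, and the 127-nt variant 0.415 and 0.431 against 0.351 and 0.286, with FDRs of 0.205 and 0.342 per the authors' deposited table. These events also share their skipping reads, 99 and 62 against 29 and 31. With the exon that starts at 68282496 the libraries of the sets overlapped.

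Other PPP6R3 exons differed less from set to set. In its deepest event, the 87-nt coding exon printed above had 0.765 and 0.761 in the first set, against 0.878 and 0.784 in the second. Both second-set libraries were above the first set. The difference was -0.068 (FDR 0.568 in the authors' deposited table), and -0.115 without library 2 of the second set. With 2 other downstream exons the 87-nt exon went the other way, at 0.958 and 0.943 against 1 and 0.788, and at 0.946 and 0.923 against 0.938 and 0.815, with overlap in both. The 168-nt exon had 0.909 and 0.893 against 0.891 and 1, and a 233-nt exon 0.942 and 0.924 against 0.855 and 1, both with overlap. The gene also had fewer junction reads in the second set for some events, such as 308 and 180 against 66 and 67 for the 151-nt exon.

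**Figure D3:**
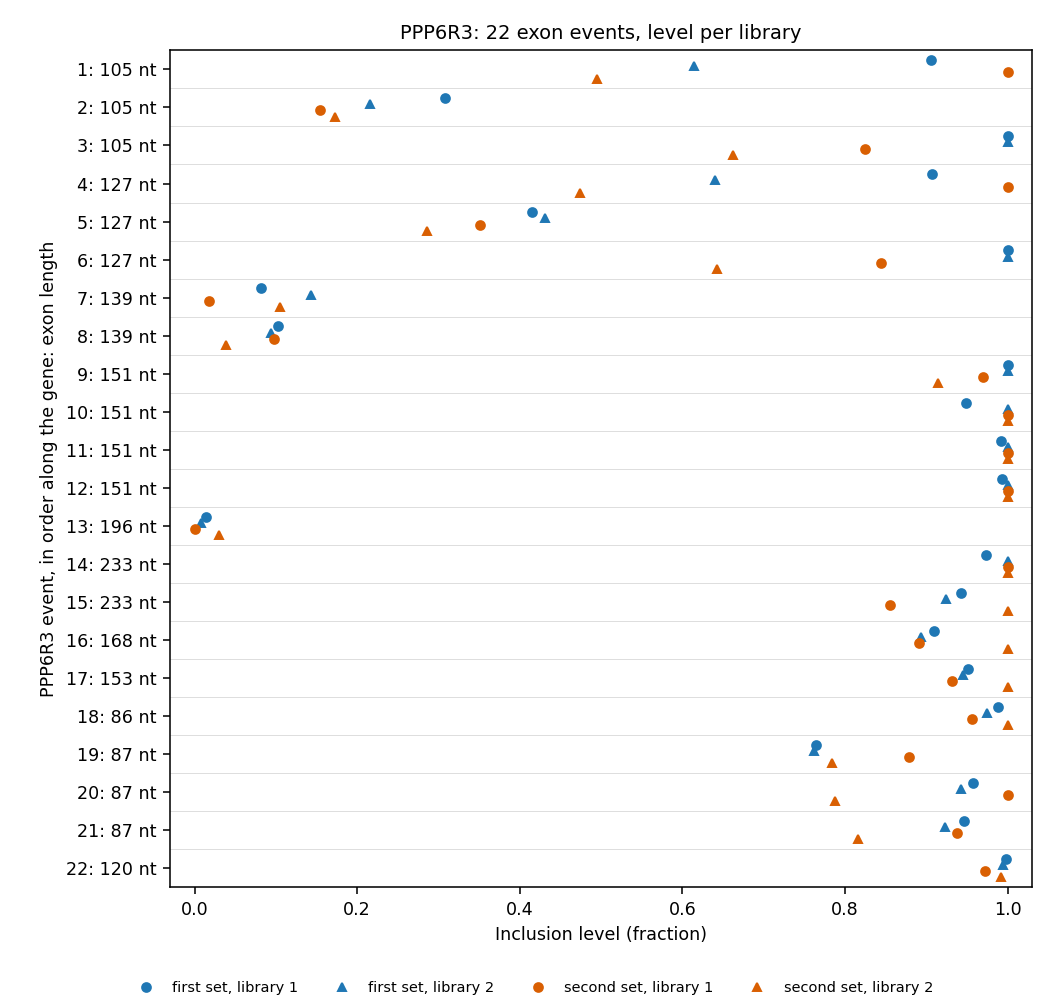
Inclusion level (fraction, horizontal axis) of 22 PPP6R3 events in each library, in order along the gene (vertical axis, labelled by exon length). Points of 1 exon length in several rows are the same exon with other neighbours: the 105-nt variant is near 1 in the first set in its called event and between 0.154 and 0.308 in its deepest event.

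PPP6R2 encodes another PP6 subunit. The 81-nt exon printed above had 0.774 and 0.753 in the first set, against 0.716 and 0.719 in the second, without overlap but with an FDR of 0.584 per the authors' deposited table. A 113-nt exon of PPP6R2 had 0.881 and 0.880 against 0.862 and 0.890, and a rare 126-nt one 0.0951 and 0.0568 against 0.0844 and 0.0609. In PPP6R1 a 153-nt exon had 0.860 and 0.865 against 0.810 and 0.890, and in PPP4R1, a PP4 subunit, a 125-nt exon had 0.084 and 0.084 against 0.126 and 0.115 (FDR 0.646 in the authors' deposited table). None of these reached a difference of 0.1.

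The regulatory subunits of PP1 fell in several small groups with 3 called events in all. In the actin and neuronal scaffold group 1 of 16 events was called (6.25%, against 2.71% of all events), in PPP1R18. In the remaining PP1 regulatory subunits 2 of 16 were called (12.5%, against 2.71%), in PPP1R37 and PPP1R21. The nuclear subunits had 0 of 33 events called (against 2.71% of all events) and 0 with an FDR under 0.05 (against 5.72%). Their median absolute difference was 0.00532. The median was 0.0485 in the remaining PP1 regulatory subunits, where 10 of 16 events were intermediate.

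PPP1R37 (ENSG00000104866.6) encodes a PP1-binding protein. Its 98-nt coding exon had levels of 0.837 (0.752 to 0.897, 143 reads) and 0.842 (0.752 to 0.904, 128 reads) in the first set. In the second it had 0.928 (0.83 to 0.971, 89 reads) and 1 (0.94 to 1, 99 reads), from 15 and 13 against 4 and 0 skipping reads. Both second-set libraries were higher, but the interval of library 1 of that set overlapped those of the first set. The difference was -0.125 with an FDR of 0.0036 per the authors' deposited table, and -0.0879, under the threshold of 0.1, without library 2 of the second set. The quasi-binomial adjusted p was 0.651. The other event on this exon, with a different downstream exon, had 0.742 and 0.914 against 0.715 and 1, with an FDR of 1 per the authors' deposited table. A 113-nt exon further along the gene had 0.957 and 0.919 against 0.923 and 0.940.

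PPP1R21 (ENSG00000162869.11) encodes an endosome-associated protein. Its 73-nt exon was rare, at 0.0774 (0.033 to 0.171, 45 reads) and 0.123 (0.0523 to 0.262, 29 reads) in the first set. In the second it was 0 (0 to 0.125, 18 reads) and 0 (0 to 0.0705, 34 reads). It was found in 5 and 5 reads of the first set and in none of the second, and the intervals overlap. The difference was 0.1 (FDR 0.0125 in the authors' deposited table), and it was 0.0774, under the threshold, without library 2 of the first set.

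PPP1R18 (ENSG00000146112.7) encodes phostensin, which takes PP1 to actin filaments. A 137-nt non-coding exon (chr6:30652185-30652321) had 0.921 (0.758 to 0.978, 47 reads) and 1 (0.844 to 1, 40 reads) in the first set. In the second it had 0.814 (0.641 to 0.915, 47 reads) and 0.765 (0.542 to 0.9, 29 reads), and skipping reads of 2 and 0 against 5 and 4. Both first-set libraries were higher, but the intervals overlap. The difference was 0.171 (FDR 0.0362 in the authors' deposited table) and 0.147 without library 2 of the second set. A 1639-nt variant that shares these skipping reads had 0.929 and 1 against 0.836 and 0.857, with an FDR of 0.066 per the authors' deposited table.

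**Figure D4:**
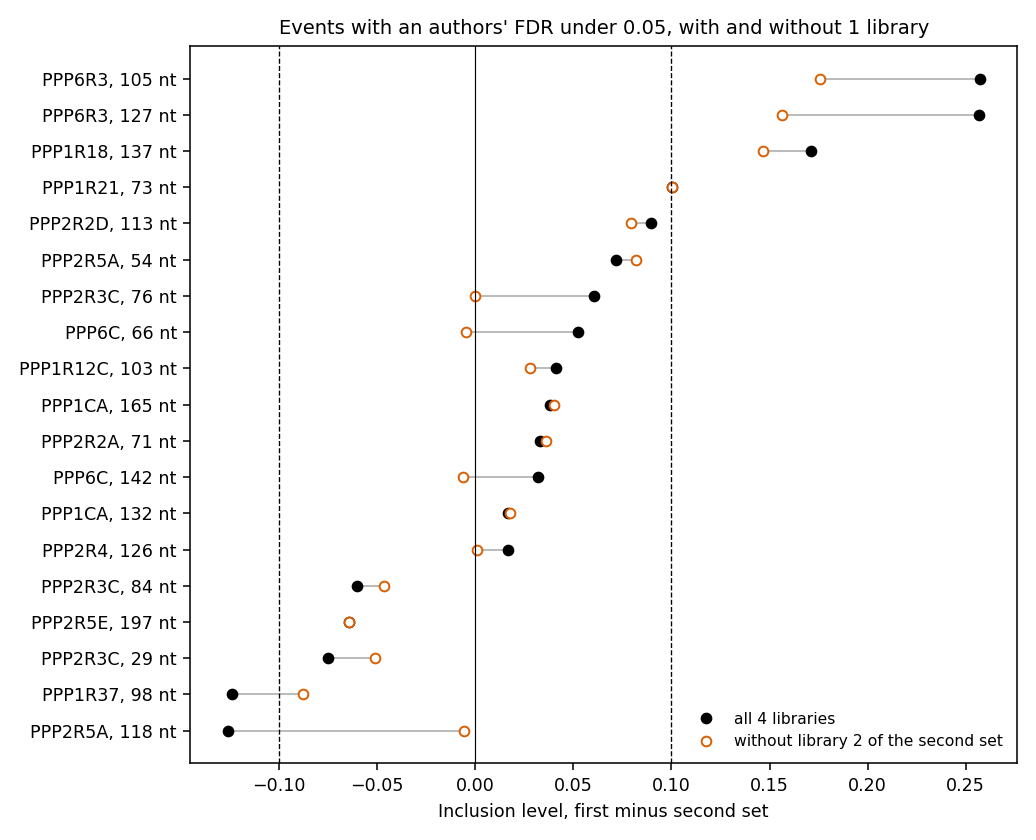
Difference in inclusion level (first minus second set, horizontal axis) of 19 of the 20 events with an FDR under 0.05, with all libraries and without library 2 of the second set. The sign held in 16 of 19, and PPP2R5A (118 nt), PPP2R4 (126 nt), PPP2R3C (76 nt) and both PPP6C exons moved to near 0.

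The PPP1R12 myosin phosphatase targeting subunits, which take PP1 to myosin, were grouped with PPP1R14A, PPP1R14B and PPP1R16A. This group had 10 intermediate events of 39 and 0 called (0%, against 2.71% of all events). In it 1 event had an FDR under 0.05 (2.56%, against 5.72%). That one was a 103-nt exon of PPP1R12C with 0.956 and 0.949 in the first set, against 0.925 and 0.898 in the second (FDR 0.0377 in the authors' deposited table). Of the other PPP1R12C exons, the 119-nt one had 0.941 and 0.941 against 0.934 and 0.827, and the 131-nt one 0.800 and 0.840 against 0.832 and 0.775. PPP1R12A, the myosin phosphatase targeting subunit of smooth muscle, had a wide spread within each set. Its 132-nt exon variant had 0.199 and 0.402 against 0.303 and 0.841 on 91, 59, 40 and 33 reads, and the 168-nt variant 0.371 and 0.594 against 0.436 and 0.889. The variants share their skipping reads, 62 and 26 against 22 and 3. For the 132-nt variant the difference of -0.271 was -0.00207 without library 2 of the second set, and its FDR was 0.459 in the authors' deposited table.

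Deep intermediate exons of other PP1 subunits were not called. PPP1R35, a centrosomal protein, had a 137-nt coding exon with 0.496 (0.44 to 0.552, 335 reads) and 0.527 (0.478 to 0.576, 446 reads) against 0.407 (0.368 to 0.448, 559 reads) and 0.423 (0.374 to 0.473, 385 reads). Both libraries of the first set were higher, but the interval of library 1 of that set overlapped those of the second. The difference was 0.097, just under the threshold, with an FDR of 0.0705 per the authors' deposited table. PPP1R7, a nuclear PP1 regulator, had 0.859 and 0.893 against 0.849 and 0.874 for a 129-nt exon, and 0.793 and 0.850 against 0.785 and 0.817 for its 122-nt variant. Both share their skipping reads, 52 and 37 against 72 and 43. PPP1R1A, a PP1 inhibitor under control of protein kinase A, had 0.853 and 0.852 against 0.905 and 0.910 for a 156-nt exon, the second set higher in both (difference -0.055, FDR 0.723 in the authors' deposited table).

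**Figure D5:**
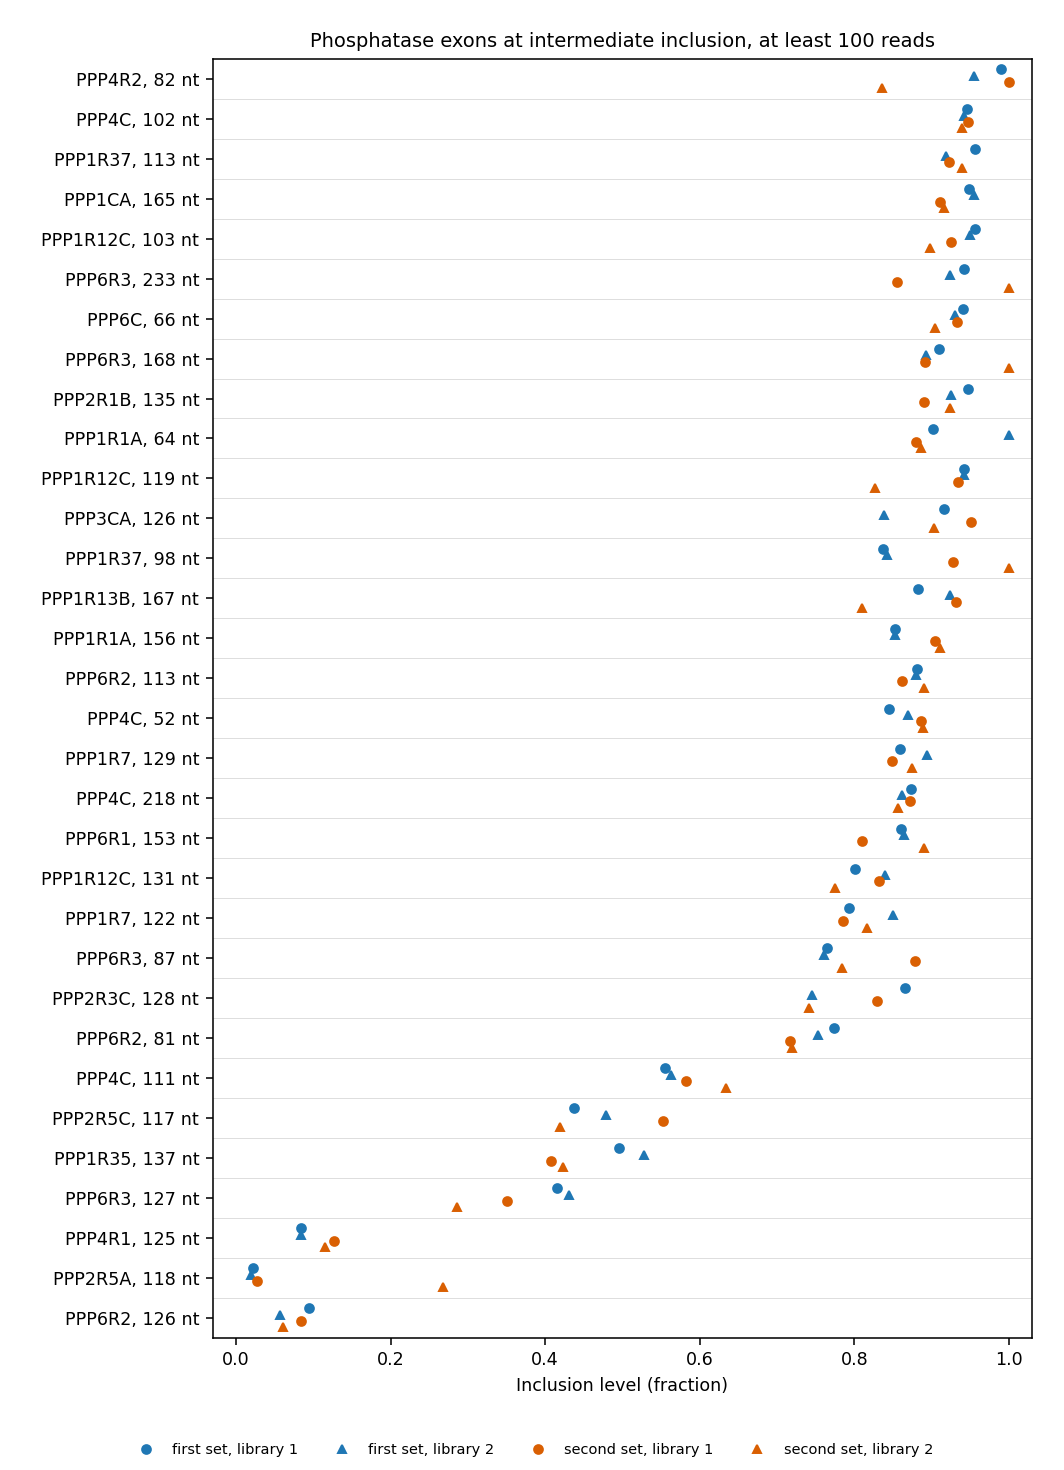
Inclusion level (fraction, horizontal axis) per library of 32 phosphatase exons of intermediate level and at least 100 reads, 1 row per exon. The 111-nt exon of PPP4C (0.555 to 0.633) and the exon of PPP1R35 (0.407 to 0.527) lie near the middle of the scale.

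Among the 69 events of intermediate level, 6 were called (8.70%, against 11.0% of such events in the table) and 26 did not overlap between the sets (37.7%, against 33.2%). Their median absolute difference was 0.0495, and it was 0.0397 between the first set's own libraries and 0.0599 between the second set's. The gap within a set is between single libraries, and the gap between the sets is between means of 2 libraries, which scatter less. These medians are therefore not like measures, and none is read against another.

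The partners of these phosphatases outside the PPP names gave 223 tested events in 33 genes, of which 1 was called (0.448%, against 2.71% of all events). It was a 111-nt exon of STRN3, a PP2A subunit of the striatin family, with 0.722 and 0.818 in the first set, against 0.851 and 1 in the second (difference -0.155, FDR 0.0323 in the authors' deposited table, -0.0814 without library 2 of the second set). The PPM phosphatases, metal-dependent enzymes of another family, gave 67 events in 17 genes, of which 2 were called (2.99%, against 2.71%). PPM1E had a 200-nt exon with 0.884 and 0.830 against 0.556 and 0.273 on 81, 43, 7 and 28 reads. PPM1D had a 243-nt exon with 1 and 1 against 0.967 and 0.826. Both were higher in the first set, at 0.442 and 0.104 in the authors' deposited table, and at 0.301 and 0.0326 without library 2 of the second set.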

How the data were processed

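PolyA RNA-seq of HEK293T cells was processed by the authors with cutadapt and STAR on hg19, per the submitters' processing notes, with versions and the splicing caller not given in the sources used here. The deposited table lists, per skipped exon event, counts of inclusion and skipping junction reads, the inclusion level as a fraction, form lengths, p-values and FDR, and the difference in level as a score, per the file headers. Each cell holds 2 libraries of a set, and no sample columns were left unused (0). Total junction reads were 38613055, 39012939, 42868431 and 43929373.

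The counts and levels were read with Python 3.11.15 and pandas 2.3.3. Calls need an FDR under 0.05 and a difference of at least 0.1 in the authors' deposited table. The quasi-binomial test and limma 3.58.1 ran in R 4.3.3 over all 54503 events with a mean of at least 20 reads, with Benjamini-Hochberg adjustment and a pseudocount of 0.5 for log2 ratios, and were tested on simulated data. Where the libraries of a set scatter, these tests miss large differences, so a count of 0 does not show that levels were alike. The genes and lists were chosen with earlier results of these data known. Named are called events, events with an unadjusted p under 0.05, a difference of at least 0.1 and no overlap, intermediate exons (0.05 to 0.95) of at least 100 reads, up to 25, the deepest event of each catalytic gene and of all, and those at the read minimum. Other exons with an FDR under 0.05, and those shown beside a called one, were chosen after their values were seen. The values of 1 exon are not reported here.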

Additional observations from a re-analysis of the deposited data

How the results depend on the processing

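The count of 6 called events was 2 at an FDR under 0.01, 13 at a difference of at least 0.05, 2 at a difference of at least 0.2 and 2 with a mean of at least 50 reads. It was 7 with at least 10 reads, 8 with no minimum, 4 with 1 event per exon, 6 with sets that do not overlap and 4 with the adjustment over tested events. The share of all events was not counted at these settings, so these counts cannot be set against the whole table. Leaving out 1 library at a time gave 4 to 6, with 4 without library 2 of the second set. The count of 0 by the quasi-binomial test was 4 with weighted limma, and leaving out 1 library gave 0 to 11. The 11 (3.68%, against 3.22% of all events) came without library 1 of the second set, where library 2 stood alone for its set and was assumed to vary like the others, and the cause was not tested. It stayed 0 without the dispersion floor, with unweighted limma, with read minimums of 10 and 50, for intermediate events and with a trended dispersion, which was chosen after seeing the data. The median absolute difference of 0.0112 was 0.00802 to 0.0133 over the left-out libraries. The edgeR alternative was not run, because the table holds 2 libraries in each cell. No paired analysis was possible because the columns carry no replicate numbers of the labels. With few reads, as in PPP6R3 and PPP1R21, a difference rests on single junction reads.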
